A study of Aspergillus fumigatus with 4 samples.

Results

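The comparison covers the filamentous fungus Aspergillus fumigatus Z5 grown on cellulose (Avicel PH-101, a microcrystalline cellulose powder) against the same strain grown on sucrose, across the whole gene table. It takes 9520 of the 9540 genes: the first 20 in locus order were left out because none had a read in the cellulose library, while they had 583 reads in the sucrose library. Gene expression was measured by sequencing cDNA of poly(A) mRNA in 4 libraries, 1 for each of sucrose, xylan, cellulose and rice straw, and xylan and rice straw are given here where they place the cellulose value. The libraries held between 6820702 reads (xylan) and 7553138 reads (rice straw), with 7005719 on sucrose and 7016686 on cellulose. Levels are in RPM, reads scaled to a library total of 1000000, without division by gene length, so that 1 read was worth 0.143 RPM in both the sucrose and the cellulose library.

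All 4 cultures were of strain Z5, started from conidia at 45 °C with shaking at 145 rpm in a sucrose medium. The mycelium for xylan, cellulose and rice straw was washed after 20 h by the sample labels (the study's methods give another time) and kept for 16 h in a basal medium without yeast extract that held the polysaccharide in place of the sugar. The time at which the sucrose culture was harvested is not clear in the sources used here. Carbon source therefore cannot be told apart from the transfer, the change of medium or the age of the culture. There was 1 library a side and no replicate, so the read test compares these libraries and not the growth conditions, and intervals cover counting error only, in PCR-amplified reads without molecular identifiers.

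Cellulose is a glucose polymer that filamentous fungi break down outside the cell. Endoglucanases cut the chains internally, cellobiohydrolases release cellobiose from the chain ends, lytic polysaccharide monooxygenases (family AA9) cleave crystalline chains by oxidation, and β-glucosidases split cellobiose to glucose, which sugar transporters bring in. In aspergilli XlnR activates many of these genes and the repressor CreA turns them off when a preferred sugar such as glucose is present.

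A gene was called higher or lower on cellulose when 3 conditions held: the larger of its RPM values was 10 or more, the ratio between them was 4-fold or more, and the Benjamini-Hochberg q was no higher than 0.0001 in a two-sided exact binomial test of its reads given the library totals. Of 9406 genes with a read in either library, 1025 (10.9%) were higher and 683 (7.26%) lower, together 1708 (18.2% of genes tested, and 23.8% of the 7188 genes with 10 RPM in either library). The higher genes took 2.75% of the reads on sucrose and 29.9% on cellulose, and the lower genes 29.0% and 2.50%. At least 10-fold differences were counted for 437 higher and 296 lower genes, and at least 100-fold differences for 89 and 51. Over all genes tested the log2 ratio had a median of 0.08, and 3624 of the 7188 genes (50.4%) lay within 2-fold.

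**Figure D1:**
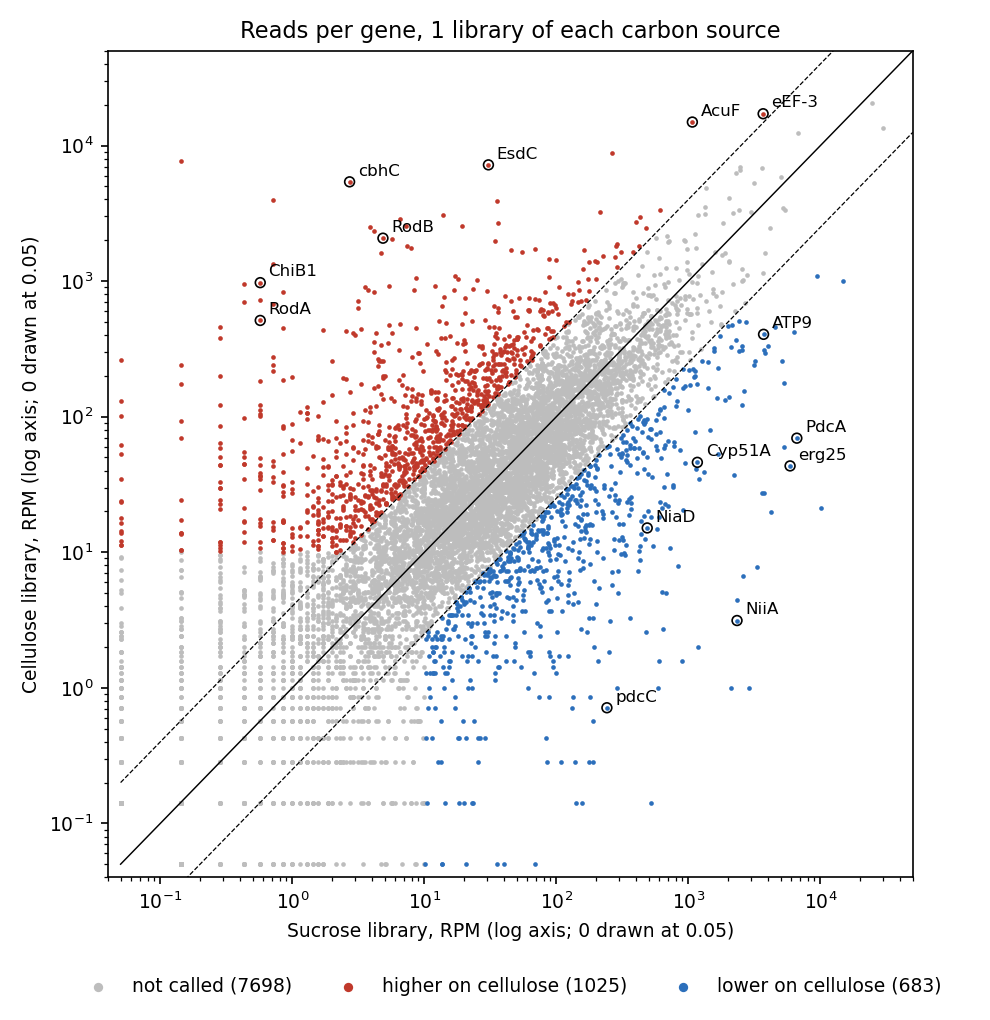
Each point is 1 gene, with RPM in the sucrose library (x) and in the cellulose library (y) on log axes; 0 is drawn at 0.05, the solid line marks equal RPM and the dashed lines 4-fold. The 1025 genes called higher lie above the upper dashed line, RodA, RodB and ChiB1 among them, and the 683 called lower lie below the lower one, with erg25, NiiA and pdcC.

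Genes on the study's list of cellulases were called higher in nearly as many cases as they were not called. The list also takes in endo-1,3(4)-β-glucanases of family GH16, such as eng4 below. Of its 50 genes tested, 24 (48%) were higher and 1 (2%) was lower, beside 10.9% and 7.26% of all genes. The median log2 ratio was 3.17 against 0.08 for all genes. Their summed level was 3921 RPM on sucrose and 5406 on xylan, and 32089.7 on cellulose and 26584 on rice straw. The other 25 were not called.

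The cellobiohydrolase cbhC (Y699_07898), which works from the chain end, had 5397 RPM on cellulose against 2.71 on sucrose, 8.94 on xylan and 5938 on rice straw (1989.9-fold, 95% interval 1274 to 3306, against sucrose). A β-glucosidase of family GH1 (Y699_09150) had 36.3 RPM on sucrose and 23.3 on xylan, and 2664 on cellulose and 1521 on rice straw (73.5-fold higher). The GH3 β-glucosidase exg18 (Y699_00572) had 2568 RPM on cellulose, with 19.3, 27.3 and 468 RPM on sucrose, xylan and rice straw (133-fold). Cellobiose dehydrogenase (Y699_02120), an oxidoreductase that passes electrons to the AA9 enzymes and carries a cellulose-binding domain, had 3073 RPM on cellulose against 13.8 on sucrose, 10.3 on xylan and 1051 on rice straw (222-fold). For these genes the sucrose and xylan libraries were low and the cellulose library high, and rice straw was between xylan and cellulose for the β-glucosidases and cellobiose dehydrogenase and above cellulose for cbhC.

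The cellulose-binding domain family CBM1, which anchors enzymes to the fibre, showed the same direction. Of its 26 genes 15 (57.7%) were higher and 1 (3.85%) lower, beside 10.9% and 7.26% of all genes. Its summed level was 1922 RPM on sucrose and 23306 RPM on cellulose. Of 8 AA9 genes 4 (50%) were higher and 0 lower, beside the same shares. Their median log2 ratio was 2.94, with summed levels of 152 RPM on sucrose and 5296 RPM on cellulose. Of those annotated as endoglucanases, 2 that were chosen after their values were seen were high on rice straw but not on cellulose. Y699_02418 had 9.99 RPM on sucrose and 38.3 on xylan, and 3.85 on cellulose and 1765 on rice straw, and Y699_05110 had 42 RPM on cellulose, with 86.1, 35.8 and 1979 RPM on sucrose, xylan and rice straw. Neither was called, with RPM 2.6-fold and 2.05-fold below sucrose. eglD (Y699_05430), also of AA9, was called higher, but its 28.5 RPM on cellulose stood against 1010.2 RPM on rice straw. The lower member of the cellulase list was eng4 (Y699_00194), an endo-1,3(4)-β-glucanase of family GH16 at 36.4 RPM on sucrose and 1.43 RPM on cellulose (25.5-fold lower).

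**Figure D2:**
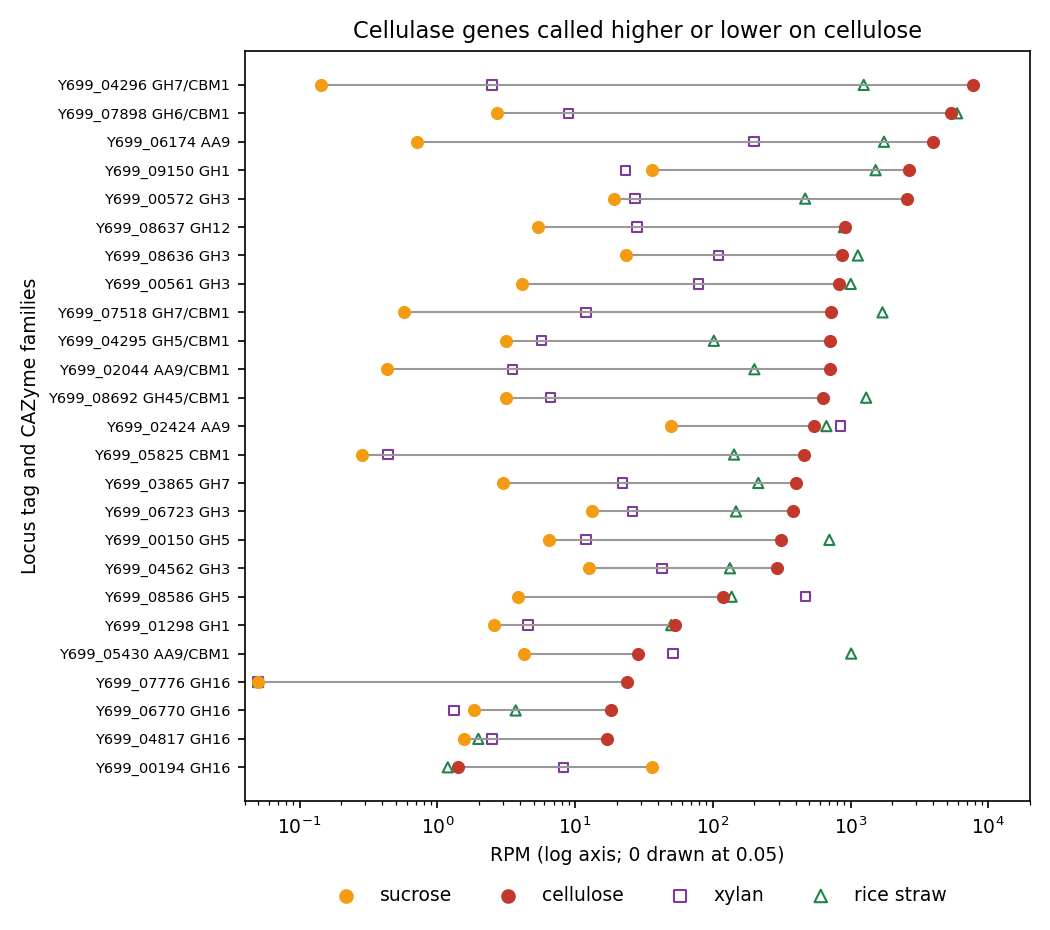
Cellulase genes called higher or lower on cellulose, 1 row a gene, with RPM (log axis, 0 drawn at 0.05) in the sucrose (orange), xylan (open square), cellulose (red) and rice straw (open triangle) libraries; the line joins sucrose and cellulose. The red point is to the right of the orange one in 24 rows and to the left in the eng4 row, and rice straw is the highest library for several genes, such as Y699_05430.

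Genes for other plant polysaccharides moved to different degrees. Of 43 hemicellulase genes 20 were higher and 3 lower (median log2 ratio 3.47). The GH11 xylanase XlnA (Y699_07611), which cuts the xylan backbone, had 947 RPM on cellulose against 0.428 on sucrose, 146 on xylan and 2359 on rice straw (2212-fold, 95% interval 757 to 10729.9). A GH10 xylanase with a cellulose-binding domain (Y699_04481) had 4.14 RPM on sucrose and 62.6 on xylan, and 2342 on cellulose and 2502 on rice straw (566-fold). Both were lower in the library grown on xylan itself than in the cellulose library. Of 33 pectinase genes 5 (15.2%) were higher and 3 (9.09%) lower, near the 10.9% and 7.26% of all genes, with a median of -0.16 and summed levels of 419 and 473 RPM.

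Sugar transporters of the major facilitator family, which take up the released sugars, moved in both directions. This group, like the others below that carry a function name, was found by words in the function texts of the study's table of genes that varied among these libraries. Texts were held for 1990 genes, of which 40.8% were higher and 26.1% lower on cellulose, so a group's count is not independent evidence of its direction and is not comparable with the 10.9% and 7.26% of all genes. Of 36 transporters 21 were higher and 6 lower. A hexose transporter (Y699_07916) had 2880.1 RPM on cellulose, with 6.57, 1089 and 5324 RPM on sucrose, xylan and rice straw (439-fold higher). A lactose permease (Y699_09366) had 1745 RPM on cellulose against 7.85 on sucrose, 8.21 on xylan and 1545 on rice straw (222-fold), so that the former was high in all 3 polysaccharide libraries and the latter on cellulose and rice straw. Monosaccharide transporters were among the lower genes. Y699_02697 had 2226 RPM on sucrose and 97.9 on xylan, and 37.3 on cellulose and 30.2 on rice straw (59.6-fold lower). Y699_04557 had 1.71 RPM on cellulose, with 22.8, 794 and 217 RPM on sucrose, xylan and rice straw (13.4-fold) and so was high on xylan and at its minimum on cellulose.

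Genes of ribosome production all lay on the same side. All 76 members had a ratio above 1, 70 of them (92.1%) were called higher and none was lower, with a median log2 ratio of 2.78. Among all genes with function texts 40.8% were higher and 26.1% lower. Ratios ran from 3.51 for the nucleolar protein Sik1 (Y699_01589), which was not called, to 18.5 for an initiation factor of RNA polymerase I, the enzyme that transcribes ribosomal RNA (Y699_07009). Summed levels were 2843 RPM on sucrose and 3289 on xylan, and 19821 on cellulose and 8039 on rice straw, the highest being on cellulose.

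Several steps of the process were covered. The initiation factor Y699_07009 had 367 RPM on cellulose against 19.8 on sucrose, 33.7 on xylan and 61.7 on rice straw (18.5-fold). The largest polymerase I subunit Rpa190 (Y699_04977) had 86.5 RPM on sucrose and 69.3 on xylan, and 586 on cellulose and 133 on rice straw (6.77-fold). Of the processing machinery, RRP5 (Y699_02269), which acts on precursors of both ribosomal subunits, had 599 RPM on cellulose, with 46.5, 45.4 and 118 RPM on sucrose, xylan and rice straw (12.9-fold, 95% interval 11.5 to 14.5). The box C/D small nucleolar protein nop58 (Y699_01225) had 797 RPM on cellulose against 123 on sucrose, 168 on xylan and 364 on rice straw (6.47-fold). Arb1 (Y699_00555), an ABC-type ATPase of ribosome biogenesis, had 174 RPM on sucrose and 210.4 on xylan, and 1032 on cellulose and 406 on rice straw (5.94-fold). The polymerase genes were chosen after their values were seen. In each of these genes xylan was within 2-fold of sucrose, and rice straw was between sucrose and cellulose.

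Translation genes were not all on 1 side. Of 21, 11 (52.4%) were higher and 1 (4.76%) lower, beside 40.8% and 26.1% of all genes with function texts. Elongation factor eEF-3 (Y699_08591), a fungal ATPase that the ribosome needs in each elongation cycle, had 17153 RPM on cellulose, with 3679, 2712 and 5822 RPM on sucrose, xylan and rice straw (4.66-fold, 95% interval 4.6 to 4.73). It took 120357 reads on cellulose, more than any other gene but Y699_03637. An aspartate-tRNA ligase gene (Y699_05957), placed by the study in metabolite cluster 17, had 49.9 RPM on cellulose against 0.571 on sucrose, 1.17 on xylan and 3.44 on rice straw (87.4-fold). By contrast, another aspartyl-tRNA synthetase (Y699_06219) had 53 RPM on sucrose and 11 RPM on cellulose (4.83-fold lower) and the cytoplasmic enzyme (Y699_07011) had 971 RPM on sucrose and 1395 RPM on cellulose and was not called.

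**Figure D3:**
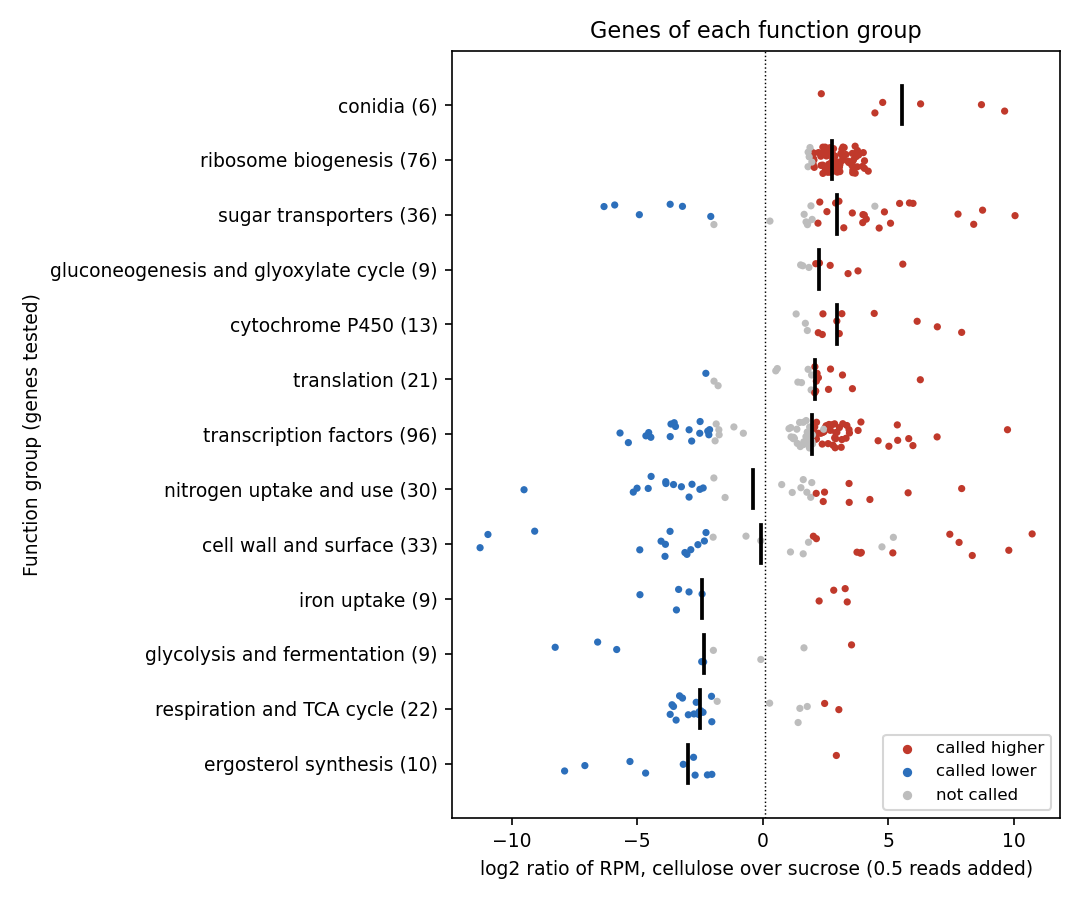
Each point is the log2 ratio of 1 gene, cellulose over sucrose with 0.5 reads added, by function group (number of genes tested in brackets), red when called higher, blue when called lower and grey when not called; black bars are group medians and the dotted line is the median of all genes, 0.08. Ribosome biogenesis genes sit in a narrow band above 0, ergosterol and respiration genes lie mostly below 0, and the nitrogen and cell wall groups spread to both sides.

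Central carbon metabolism showed opposite directions for the breakdown of sugar and for its synthesis. In glycolysis and fermentation 5 of 9 genes (55.6%) were lower and 1 (11.1%) higher, beside 26.1% and 40.8% of all genes with function texts. Pyruvate decarboxylase PdcA (Y699_01443), the entry to ethanol formation, had 6621 RPM on sucrose and 4980.4 on xylan, and 69.4 on cellulose and 294 on rice straw (95.4-fold, 95% interval 87.2 to 105, lower). Its paralogue pdcC (Y699_05333) had 0.713 RPM on cellulose, with 241, 119 and 10.7 RPM on sucrose, xylan and rice straw (339-fold). Phosphoglycerate kinase PgkA (Y699_08236) had 503 RPM on cellulose against 2709 on sucrose, 1586 on xylan and 527 on rice straw (5.38-fold). The higher member was a hexokinase (Y699_08425) with 27.5 RPM on sucrose and 162 on xylan, and 321 on cellulose and 66.9 on rice straw (11.7-fold). The decarboxylases were thus high on sucrose and xylan and low on cellulose.

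Gluconeogenesis and the glyoxylate cycle, which together make sugars from acetyl-CoA and organic acids, had 6 of 9 genes (66.7%) higher and 0 lower. The shares among all genes with function texts were 40.8% and 26.1%. Isocitrate lyase AcuD (Y699_09164), the first enzyme of the glyoxylate shunt, had 660.4 RPM on cellulose, with 13.7, 77.4 and 652 RPM on sucrose, xylan and rice straw (48.2-fold). Malate synthase AcuE (Y699_07347), the next enzyme, had 1824 RPM on cellulose against 283 on sucrose, 1342 on xylan and 8651 on rice straw (6.45-fold). The level of AcuD was alike on cellulose and rice straw, while AcuE was highest on rice straw. Acetyl-CoA synthetase FacA (Y699_06473) and pyruvate carboxylase (Y699_06158) had ratios of 2.85 and 3.02 and were not called.

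In the group that joins mitochondrial respiration and the citric acid cycle, 15 of 22 genes (68.2%) were lower and 2 (9.09%) higher. The shares among all genes with function texts were 26.1% and 40.8%. The group's median log2 ratio was -2.50, but the citric acid cycle genes named below had ratios above 1. The summed level of the group changed little, with a ratio of 0.85. It was 12840 RPM on sucrose and 8457 on xylan, and 10897 on cellulose and 14409 on rice straw. The proton channel subunit ATP9 of ATP synthase (Y699_06321) had 3706 RPM on sucrose and 1382 on xylan, and 405 on cellulose and 204 on rice straw (9.15-fold lower). The 4 ubiquinone synthesis genes were all lower: among them Coq6 (Y699_04855) had 60.6 RPM on cellulose, with 779.5, 825 and 120.3 RPM on sucrose, xylan and rice straw (12.9-fold), and Coq4 (Y699_01905) had 15.8 RPM on cellulose against 186 on sucrose, 216 on xylan and 39.5 on rice straw (11.8-fold). Cytochrome c oxidase subunit Vb, cox5b (Y699_03090), had 605 RPM on sucrose and 474 on xylan, and 77.5 on cellulose and 153 on rice straw (7.8-fold). The members of the citric acid cycle did not share this: aconitase (Y699_04417) and citrate synthase Cit1 (Y699_00380) had ratios of 2.66 and 2.79, not called, and another citrate synthase entry, mcsA (Y699_07342), which is the methylcitrate synthase of propionate use, had 16.6 RPM on sucrose and 136 RPM on cellulose (8.23-fold higher).

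Ergosterol genes were lower with 1 exception. Ergosterol is the main sterol of fungal membranes, and its synthesis from squalene uses molecular oxygen and haem-containing enzymes. Of 10 genes 9 (90%) were lower and 1 (10%) was higher, beside 26.1% and 40.8% of all genes with function texts. The summed level was 11028 RPM on sucrose and 1823 RPM on cellulose. The squalene epoxidase Erg1 (Y699_00627) had 326 RPM on cellulose, with 2108, 2124 and 892 RPM on sucrose, xylan and rice straw (6.46-fold). The 14α-demethylase Cyp51A (Y699_06061), the target of azole drugs, had 46 RPM on cellulose against 1168 on sucrose, 909.9 on xylan and 182 on rice straw (25.4-fold, 95% interval 22.7 to 28.5). The C-5 desaturase erg3 (Y699_04605) had 581 RPM on sucrose and 439.5 on xylan, and 14.8 on cellulose and 115 on rice straw (39.2-fold). The exception was HMG-CoA reductase hmg1 (Y699_03153), which acts earlier, in the mevalonate part of the pathway, and had 1227 RPM on cellulose, with 160.3, 179.7 and 217 RPM on sucrose, xylan and rice straw (7.65-fold, 95% interval 7.19 to 8.15). For these 3 lower genes sucrose and xylan were near each other and rice straw lay between them and cellulose, whereas hmg1 was near its sucrose level on both xylan and rice straw.

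A haem synthesis gene, coproporphyrinogen III oxidase hem13 (Y699_01108), which also uses oxygen, followed the same order of libraries with 27.5 RPM on cellulose against 3612 on sucrose, 2997 on xylan and 139 on rice straw (131-fold). frdA (Y699_08530), annotated as a FAD-dependent oxidoreductase, had 2592 RPM on sucrose and 1993 on xylan, and 6.7 on cellulose and 108 on rice straw (387-fold), and srbB (Y699_03549), a helix-loop-helix factor of the sterol regulatory element binding kind, had 329.8 RPM on cellulose, with 3973, 4044 and 9875 RPM on sucrose, xylan and rice straw (12-fold). hem13 and srbB were chosen after their values were seen. srbB differed from the sterol genes in being highest on rice straw.

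Nitrogen genes changed in both directions: 8 (26.7%) higher and 13 (43.3%) lower of 30, beside 40.8% and 26.1% of all genes with function texts. Nitrate reductase NiaD (Y699_05084), the first step of nitrate use, had 15.1 RPM on cellulose against 487 on sucrose, 65.2 on xylan and 26.5 on rice straw (32.2-fold lower). The ammonium transporter MeaA (Y699_03361) had 226 RPM on sucrose and 18.3 on xylan, and 19.2 on cellulose and 15.1 on rice straw (11.8-fold). The glutamate synthase Glt1 (Y699_01116), which makes glutamate from glutamine, had 305 RPM on cellulose, with 1575, 314 and 154 RPM on sucrose, xylan and rice straw (5.17-fold). In these the 3 polysaccharide libraries were all below sucrose, and MeaA and Glt1 did not have their lowest value on cellulose. On the other side, a glutamine synthetase entry (Y699_03520) had 435 RPM on cellulose against 1.71 on sucrose, 2.35 on xylan and 25.7 on rice straw (254-fold, 95% interval 145 to 492), while another (Y699_07348) had 29.8 RPM on sucrose and 116 RPM on cellulose and was not called. The dicarboxylic amino acid permease Dip5 (Y699_02930) had 4.57 RPM on sucrose and 70.1 on xylan, and 258 on cellulose and 94.1 on rice straw (56.4-fold), and allantoinase (Y699_04787), of purine breakdown, had 655 RPM on cellulose, with 33.8, 114 and 911 RPM on sucrose, xylan and rice straw (19.4-fold). By the study's methods the basal medium supplied urea and ammonium sulfate, and the sucrose medium also held yeast extract, so the nitrogen supply differed along with the carbon source.

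Iron uptake genes were split, 4 (44.4%) higher and 5 (55.6%) lower of 9, beside 40.8% and 26.1% of all genes with function texts. The reductive uptake pair, ferroxidase fetC (Y699_00335) and permease ftrA (Y699_00336), which are neighbours in locus order, had 627 RPM on sucrose and 21.1 RPM on cellulose (29.7-fold lower) in the first and 608 RPM on sucrose and 114 RPM on cellulose (5.33-fold) in the second. The siderophore transporter sit2 (Y699_08492) had 219.7 RPM on sucrose and 20.2 RPM on cellulose (10.9-fold), and the siderophore synthesis gene sidL (Y699_06844) had 229 RPM on sucrose and 29.9 RPM on cellulose (7.65-fold). Among metalloreductases, which reduce ferric iron at the surface, fre2 (Y699_09369) had 5 RPM on sucrose and 52.3 RPM on cellulose (10.5-fold higher), another (Y699_01469) had 19 RPM on sucrose and 136 RPM on cellulose (7.14-fold), and Y699_08517 had 38.4 RPM on sucrose and 3.71 RPM on cellulose (10.4-fold lower). So the lower members were those for uptake and siderophores and 1 reductase, and the higher members were reductases.

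Of 6 conidial genes, 5 were called higher on cellulose than in each of the other 3 libraries, flbD being the exception. All 6 genes whose text in the study's table of varying genes names conidia, conidiophores or hydrophobins were higher than on sucrose. Their median log2 ratio was 5.54, and their summed level was 19.1 RPM on sucrose and 61.7 on xylan, and 2896 on cellulose and 62.2 on rice straw. That table holds genes that varied among these libraries, and 40.8% of its genes with texts were higher. A gene near 0 in the other libraries could enter it through the cellulose library, so the count is not independent evidence. RodA (Y699_00799), the hydrophobin that forms the rodlet layer of the spore surface, had 512 RPM on cellulose against 0.571 on sucrose, 14.5 on xylan and 0.265 on rice straw (898-fold, 95% interval 350.3 to 3296), and RodB (Y699_09371) had 4.85 RPM on sucrose and 22.3 on xylan, and 2072 on cellulose and 41.8 on rice straw (427-fold, 95% interval 305 to 617). flbD (Y699_06949), a MYB factor of conidiophore development, had 24.8 RPM on cellulose, with 4.85, 9.38 and 9.4 RPM on sucrose, xylan and rice straw (5.11-fold). In a culture measured as a whole, more conidiating cells and more RNA of these genes per cell cannot be told apart.

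The pigment genes of the conidium, which make dihydroxynaphthalene melanin, include arp1, arp2 and abr1, which are members of that group of 6, and PksP and Y699_02127, which have no text in the part of the table used here. The polyketide synthase PksP (Y699_02122) had 607 RPM on cellulose against 62.1 on sucrose, 60.7 on xylan and 27 on rice straw (9.77-fold, 95% interval 8.85 to 10.8). The dehydratase arp1 (Y699_02123) had 1.71 RPM on sucrose and 3.23 on xylan, and 49 on cellulose and 4.37 on rice straw (28.6-fold). The reductase arp2 (Y699_02124) had 131 RPM on cellulose, with 5.85, 6.89 and 6.09 RPM on sucrose, xylan and rice straw (22.5-fold). The oxidase abr1 (Y699_02126) had 106 RPM on cellulose against 1.28 on sucrose, 5.42 on xylan and 0.265 on rice straw (82.6-fold). These genes and the 2 others between and after them, Y699_02125 (74.6-fold) and Y699_02127 (13.4-fold), form a run of 6 called higher. The developmental regulators WetA (Y699_04830) and StuA (Y699_03003), chosen after their values were seen, were not called. WetA had 6.99 RPM on sucrose and 23.8 RPM on cellulose (a ratio of 3.4), and StuA had 294 RPM on sucrose and 1008 RPM on cellulose (a ratio of 3.43). EsdC (Y699_08892), named for early sexual development in A. nidulans, was different, with 30.5 RPM on sucrose and 2649 on xylan, and 7199 on cellulose and 10018 on rice straw (236-fold), high in all 3 polysaccharide libraries.

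Enzymes that cut the fungus's own wall polymers were among the largest differences. Of the GH71 family, α-1,3-glucanases that act on a wall polymer, 4 of 8 (50%) were higher and 1 (12.5%) was lower, beside 10.9% and 7.26% of all genes. Y699_03182 had 1339 RPM on cellulose, with 0.714, 1.17 and 2.65 RPM on sucrose, xylan and rice straw (1876-fold), and its neighbour Y699_03183 had 831 RPM on cellulose against 0.856 on sucrose, 0.88 on xylan and 3.71 on rice straw (970.0-fold). Another, Y699_05485, had 0.999 RPM on sucrose and 1.32 on xylan, and 32.9 on cellulose and 0.927 on rice straw (32.9-fold). All 3 were high on cellulose alone. Y699_07702 had 296 RPM on cellulose, with 46.4, 79.2 and 868 RPM on sucrose, xylan and rice straw, and so was highest on rice straw. Y699_05145 had 18 RPM on sucrose and 3.71 RPM on cellulose (4.85-fold lower). Family GH17, which holds the wall glucanase Scw11 described below, had 1 higher and 2 lower of 5. Its summed level fell from 17711 RPM on sucrose to 2133 on cellulose, with 12807 on xylan and 10390 on rice straw.

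Chitinases divided. The class V enzyme ChiB1 (Y699_05833), known for its role in the autolysis of this species, had 974 RPM on cellulose against 0.571 on sucrose, 1.03 on xylan and 20.7 on rice straw (1706-fold, 95% interval 666 to 6262). The class III enzyme chi3 (Y699_08538) had 0.571 RPM on sucrose and 0.88 on xylan, and 105 on cellulose and 4.9 on rice straw (184-fold). In the opposite direction, the class III enzyme ChiA1 (Y699_00332) had 61.3 RPM on cellulose, with 669, 2064 and 3121 RPM on sucrose, xylan and rice straw (10.9-fold lower) and was thus lowest on cellulose and highest on rice straw. Of 8 genes in all, 5 (62.5%) were higher and 2 (25%) lower, beside 40.8% and 26.1% of all genes with function texts. The lower share was thus near that of all such genes.

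**Figure D4:**
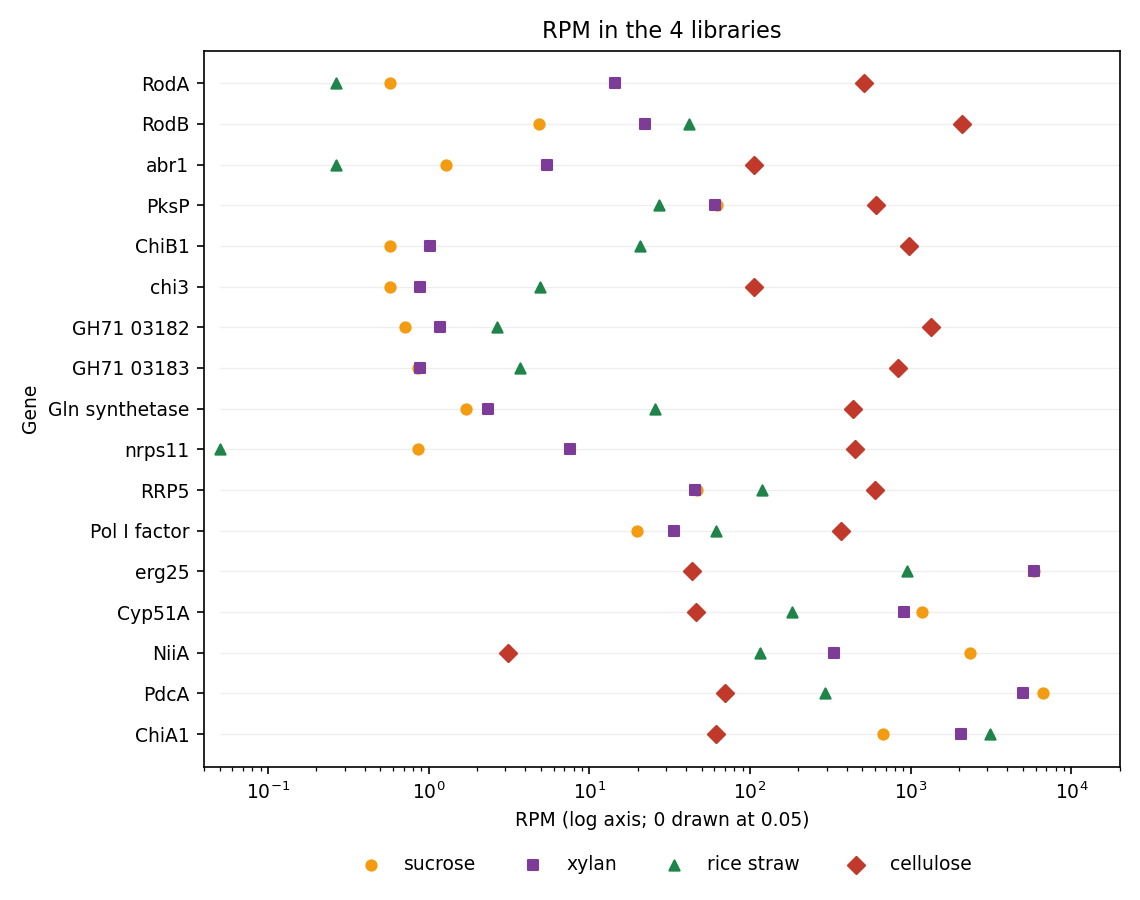
RPM in the 4 libraries (log axis, 0 drawn at 0.05), 1 row a gene, for genes described in the text and for erg25 and NiiA. Cellulose is a red diamond, sucrose an orange circle, xylan a purple square and rice straw a green triangle. The red diamond is at the right of its row for the conidial, ChiB1, chi3, GH71, glutamine synthetase, nrps11 and ribosome production genes. It is at the left for erg25, Cyp51A, NiiA, PdcA and ChiA1.

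Genes that build or remodel the wall and surface were split, 11 (33.3%) higher and 14 (42.4%) lower of 33. Among all genes with function texts the shares were 40.8% and 26.1%. The lower ones carried most of the reads on sucrose: the summed level was 41708 RPM on sucrose and 25507 on xylan, and 8455 on cellulose and 41062 on rice straw. A GPI-anchored cell wall protein (Y699_07627) had 3668 reads on sucrose and 1 on cellulose (3674-fold, 95% interval 659 to 145144). Another cell wall protein (Y699_01724) had 176 RPM on cellulose against 5250.4 on sucrose, 3197 on xylan and 1258 on rice straw (29.8-fold). The GH17 wall glucanase Scw11 (Y699_05526) had 2276 RPM on sucrose and 2149.9 on xylan, and 369 on cellulose and 2345 on rice straw (6.17-fold). For Scw11 the other 3 libraries were alike and cellulose alone was lower.

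Within the GH72 glucanosyltransferases, which lengthen β-1,3-glucan side chains in the wall, gel1 and gel2 went opposite ways. gel1 (Y699_04684) had 509.6 RPM on cellulose, with 2403, 1069 and 499 RPM on sucrose, xylan and rice straw (4.71-fold lower) and gel2 (Y699_04274) had 1729.9 RPM on cellulose against 68.5 on sucrose, 502 on xylan and 1105 on rice straw (25.2-fold, 95% interval 23 to 27.7). For both genes xylan and rice straw lay on the same side of sucrose as cellulose. Higher surface proteins included CweA (Y699_06343) with 30.7 RPM on sucrose and 41.1 on xylan, and 457 on cellulose and 51.6 on rice straw (14.9-fold). The galactomannoprotein Mp1 (Y699_03574) had 858 RPM on cellulose, with 3.71, 205 and 16882 RPM on sucrose, xylan and rice straw (231-fold). CweA was thus high on cellulose alone, and Mp1 was highest on rice straw. The chitin synthase gene chsC (Y699_00049) had 338 RPM on sucrose and 56.4 RPM on cellulose (5.98-fold lower).

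Of 96 transcription factor genes 45 (46.9%) were higher and 16 (16.7%) lower, beside 40.8% and 26.1% of all genes with function texts. The count is therefore not read as a rise of the group. xlnR (Y699_02312), the activator of xylanase and cellulase genes, had 179 RPM on cellulose against 23 on sucrose, 21 on xylan and 226 on rice straw (7.78-fold). The carbon repressor creA (Y699_02675) had 614 RPM on sucrose and 673 on xylan, and 3366 on cellulose and 4714 on rice straw (5.48-fold), so the activator and the repressor both had more RPM on cellulose and rice straw than on sucrose. FacB (Y699_05015), which activates acetate use, had 713 RPM on cellulose, with 132, 159 and 542 RPM on sucrose, xylan and rice straw (5.41-fold). AlcR (Y699_00602), the activator of ethanol use, had 66.6 RPM on cellulose against 6 on sucrose, 10.6 on xylan and 108 on rice straw (11.1-fold) and was chosen after its values were seen. Beside these, some factors were high on cellulose alone. pacC (Y699_01358), the regulator of the response to pH, had 148 RPM on sucrose and 194 on xylan, and 858 on cellulose and 207 on rice straw (5.79-fold, 95% interval 5.42 to 6.19), and farB1 (Y699_05667), a fatty acid regulator, had 1544 RPM on cellulose, with 227, 159.8 and 244 RPM on sucrose, xylan and rice straw (6.79-fold). The C6 factor Y699_03653 had 10.3 RPM on cellulose against 422 on sucrose, 17.4 on xylan and 19.6 on rice straw (41.1-fold lower).

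In A. nidulans AlcR controls the genes of ethanol oxidation. AlcS (Y699_08801) had 0 reads on sucrose and 432 on cellulose, at least 144-fold higher when sucrose is set to a floor of 3 reads. Next to it, an aldehyde dehydrogenase (Y699_08802) had 0.856 RPM on sucrose and 1.76 on xylan, and 185 on cellulose and 71.2 on rice straw (216-fold). The alcohol dehydrogenase adh1 (Y699_08803) had 175 RPM on cellulose, with 0.143, 5.28 and 244 RPM on sucrose, xylan and rice straw (1229-fold, 95% interval 220.2 to 48585). These 3 neighbours were near 0 on sucrose and xylan. The aldehyde dehydrogenase aldA (Y699_04278) had 333 RPM on cellulose against 26.1 on sucrose, 37.5 on xylan and 489 on rice straw (12.7-fold). The alcohol dehydrogenase alcC (Y699_00475), which works in fermentation in this species, was lower, from 20252 reads to 7.

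Genes of secondary metabolism moved in both directions, and their clusters were called only in part. Some clusters were mixed, such as cluster 20, with 4 higher and 8 lower of 28 genes. Of 42 polyketide synthase and nonribosomal peptide synthetase genes, 8 (19.0%) were higher and 7 (16.7%) lower. Beside these and the cluster counts below stand the 10.9% and 7.26% of all genes. In the study's metabolite cluster 3, which holds the has genes of hexadehydroastechrome synthesis, 7 of 18 were higher and none was lower, and the summed level was 1001 RPM on sucrose and 27768 on xylan, and 24111 on cellulose and 2152 on rice straw. The peptide synthetase nrps5 (Y699_01268) had 7.28 RPM on sucrose and 964 on xylan, and 2545 on cellulose and 2.52 on rice straw (349.6-fold, 95% interval 266 to 469.7). The methyltransferase hasC (Y699_01269) had 2512 RPM on cellulose, with 3.85, 1765 and 1.46 RPM on sucrose, xylan and rice straw (652-fold). The C6 regulator hasA (Y699_01271) had 3240.1 RPM on cellulose against 215 on sucrose, 1391 on xylan and 108 on rice straw (15.1-fold). These 3 genes were thus high on xylan and cellulose and below their sucrose level on rice straw.

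Other clusters held genes that were highest on cellulose, most of those named here being high on cellulose alone. In cluster 10 the fumiquinazoline peptide synthetase nrps11 (Y699_04336) had 0.856 RPM on sucrose and 7.62 on xylan, and 450.5 on cellulose and 0 on rice straw (526-fold, 95% interval 241 to 1434). The oxidoreductase fmqD (Y699_04338) had 122 RPM on cellulose, with 0.285, 2.05 and 0 RPM on sucrose, xylan and rice straw (426-fold, 95% interval 118 to 3522). In all 6 of 9 genes were higher. In cluster 7 the endocrocin polyketide synthase encA (Y699_03778) had 308 RPM on cellulose against 12.3 on sucrose, 11.1 on xylan and 6.62 on rice straw (25.1-fold) and encD (Y699_03775) had 0.571 RPM on sucrose and 1.17 on xylan, and 101 on cellulose and 0.794 on rice straw (177-fold). Cluster 17 was incomplete: the fumitremorgin gene ftmF (Y699_05946) had 277 RPM on cellulose, with 0.714, 7.77 and 18.3 RPM on sucrose, xylan and rice straw (388-fold), and ftmPT1 (Y699_05948) had 32.8 RPM on cellulose against 0.714 on sucrose, 14.7 on xylan and 1.46 on rice straw (45.9-fold). ftmPT1 was thus well above its sucrose level on xylan too. The synthetase that begins the pathway, FtmA (Y699_05951), had 10.8 RPM on sucrose and 4.69 on xylan, and 7.84 on cellulose and 1.85 on rice straw, and was not called. FtmA was chosen after its values were seen.

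Clusters with lower genes included cluster 18, where 5 of 6 were lower and the polyketide synthase fgnA (Y699_06115) had 10.4 RPM on cellulose, with 273, 27 and 90.2 RPM on sucrose, xylan and rice straw (26.2-fold). The peptide synthetase Pes1 (Y699_08232, nrps1) had 123 RPM on cellulose against 2565 on sucrose, 909 on xylan and 55.3 on rice straw (20.9-fold, 95% interval 19.5 to 22.4). The siderophore-type synthetase SidE (Y699_07658) had 354 RPM on sucrose and 95.6 on xylan, and 18.7 on cellulose and 48.3 on rice straw (19-fold). For these, all 3 polysaccharide libraries were below sucrose, with cellulose the lowest except for Pes1, which was lower still on rice straw.

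Many called genes had a neighbour called in the same direction. Of the higher genes 411 (40.1%) were in 164 runs of at least 2 neighbours in locus order, and of the lower genes 239 (35.0%) were in 98 runs. With 10.9% of all genes higher and 7.26% lower, some runs arise even when calls fall independently of locus order. The share to be met in that case was not computed, so these shares do not show clustering. Neighbours are adjacent locus tags, and scaffold ends were not taken into account. The longest higher run had 8 genes, from Y699_00730 to Y699_00737. It holds the lysine synthesis gene lysF (Y699_00730, 43.7 RPM on sucrose and 333 RPM on cellulose, 7.63-fold), the arabinitol dehydrogenase ArbD (Y699_00731, 4.71 RPM on sucrose and 335 RPM on cellulose, 71.1-fold) and both subunits of 3-methylcrotonyl-CoA carboxylase, of leucine breakdown (Y699_00732 and Y699_00735, 7.65-fold and 10.1-fold), with isovaleryl-CoA dehydrogenase IvdA, of the same route, between them (Y699_00734, 3.43 RPM on sucrose and 52.7 RPM on cellulose, 15.4-fold).

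Another run of 7 begins with the glutamine synthetase Y699_03520 described above. It goes on with a GMP synthase entry (Y699_03521), which had 121 RPM on cellulose, with 0.571, 1.47 and 7.94 RPM on sucrose, xylan and rice straw (213-fold). Next in order, an aldehyde dehydrogenase (Y699_03522) had 441 RPM on cellulose against 3.28 on sucrose, 6.16 on xylan and 34.3 on rice straw (134-fold). A short-chain dehydrogenase (Y699_03523) had 2 RPM on sucrose and 3.81 on xylan, and 145 on cellulose and 22.8 on rice straw (72.6-fold). These first members of the run were near 0 on sucrose and xylan and low on rice straw. The last, the chaperone Zuotin (Y699_03526), had 379.8 RPM on cellulose, with 66.2, 73.9 and 373 RPM on sucrose, xylan and rice straw (5.73-fold), as high on rice straw as on cellulose.

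A run of 6, Y699_09283 to Y699_09288, holds the cyclase osc3, the cytochrome P450 cyp5081A1 and the transferase helD1 of helvolic acid synthesis. osc3 had 58.1 RPM on cellulose against 3.57 on sucrose, 5.42 on xylan and 5.03 on rice straw (16.3-fold), cyp5081A1 (Y699_09284) had 0.285 RPM on sucrose and 3.52 on xylan, and 44.3 on cellulose and 8.47 on rice straw (155-fold, 95% interval 42.6 to 1288) and helD1 had 44.8 RPM on cellulose, with 0.428, 3.81 and 7.94 RPM on sucrose, xylan and rice straw (105-fold, 95% interval 35.4 to 509). The study grouped these genes as co-regulated on these libraries, so their joint change is not independent evidence.

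The longest lower run had 11 genes, from Y699_07825 to Y699_07835, among them a polyketide synthase, a phenol hydroxylase and the C6 factor Y699_07832, which had 17.8 RPM on cellulose against 225 on sucrose, 40.5 on xylan and 13.6 on rice straw (12.6-fold). An MFS transporter in it (Y699_07829) had 179 RPM on sucrose and 24.3 on xylan, and 0.855 on cellulose and 3.97 on rice straw (209-fold). A short-chain dehydrogenase (Y699_07833) had 1234 reads on sucrose and 2 on cellulose (618-fold, 95% interval 171 to 5108). The genes named here were highest on sucrose and below it in all 3 polysaccharide libraries. The run of 11 is the study's co-regulated fragment 18, grouped on these libraries, so its joint change is not independent evidence. Another lower stretch goes from the GH72 gene Y699_05765 to och3 (Y699_05773), with 8 of 9 genes lower, and contains a nucleotide-sugar transporter (Y699_05769, 17 RPM on cellulose, with 437, 42.4 and 35.6 RPM on sucrose, xylan and rice straw, 25.8-fold) and a GT32 glycosyltransferase (Y699_05770, 4.28 RPM on cellulose against 122 on sucrose, 12.5 on xylan and 19.7 on rice straw, 28.6-fold).

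**Figure D5:**
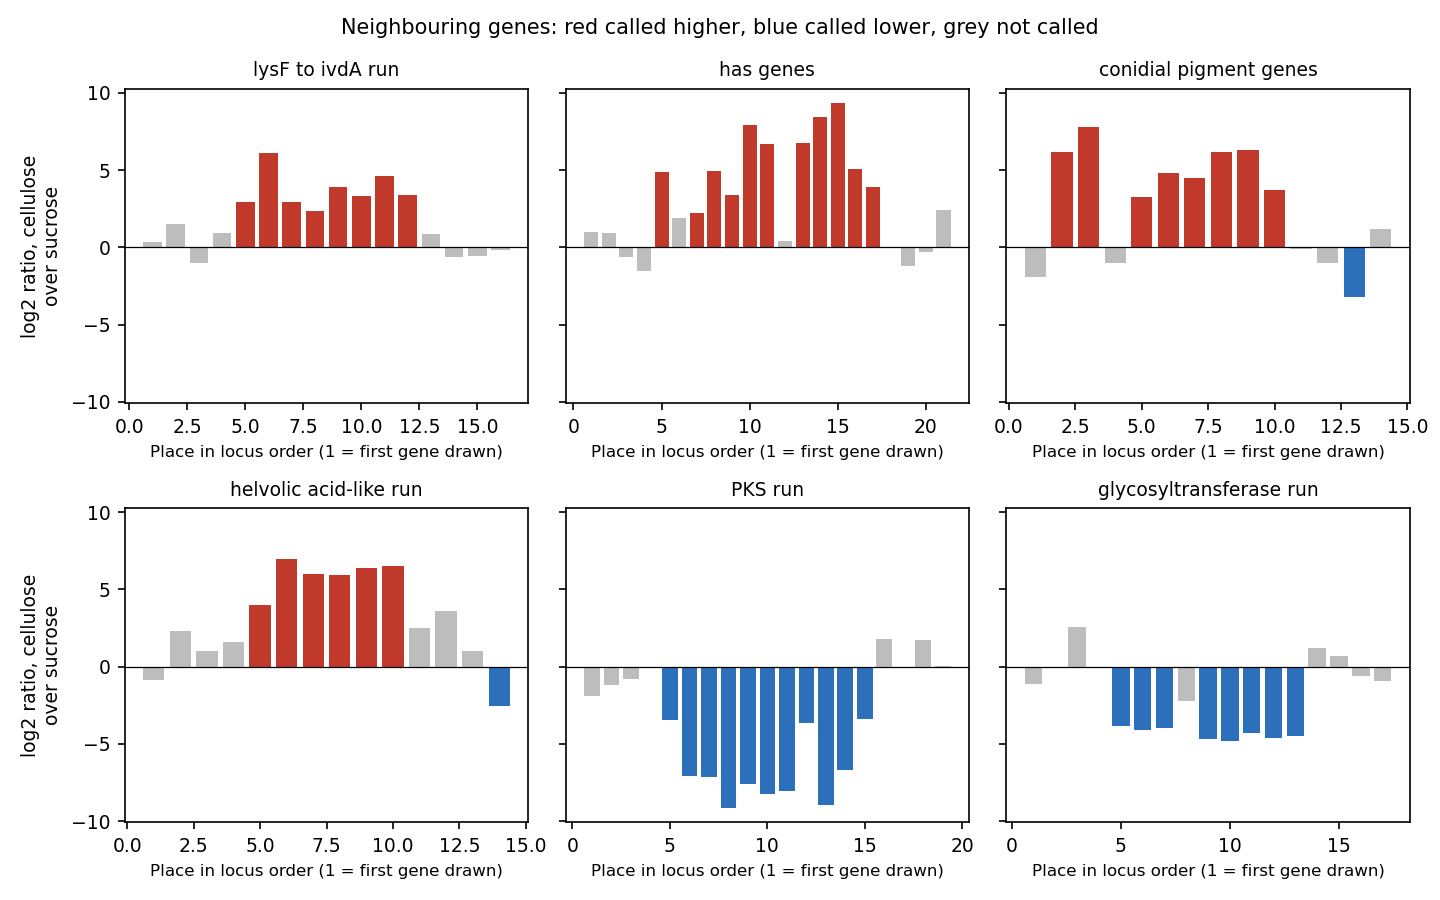
log2 ratio of RPM, cellulose over sucrose with 0.5 reads added, for neighbouring genes in locus order, with 4 genes on each side of the stretch named above each panel; red bars were called higher, blue bars lower and grey bars were not called. The calls in the run of 8, the helvolic acid run and the run of 11 are unbroken, while genes that were not called interrupt the has and glycosyltransferase stretches.

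To see which differences were found against the other polysaccharides as well, the cellulose library was compared with xylan and with rice straw by the same rule. This comparison was added after the values were seen, and the 3 comparisons share the 1 cellulose library. Against xylan 908 genes (9.67%) were higher and 608 (6.47%) lower of 9391, and against rice straw 542 (5.77%) were higher and 396 (4.21%) lower of 9397. Higher than in each of the other 3 libraries were 256 of 9333 genes (2.74%), and lower than in each were 154 (1.65%). The 256 genes took 5.60% of the cellulose reads and 0.317% on sucrose, 0.362% on xylan and 0.671% on rice straw. The 154 took 0.643% on cellulose and 13.7%, 12.4% and 7.84% on sucrose, xylan and rice straw.

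Among the 1990 genes with function texts, from which the word groups come, 152 (7.64%) were higher than in each of the other 3 libraries and 140 (7.04%) lower. These shares, and not those of all genes, stand beside the counts of the word groups, and no difference between groups was tested. Of the conidial genes, a word group, 5 of 6 were among the 256. The study's own lists stand beside the 2.74% of all genes instead. GH71 had 3 of 8 (37.5%), the polyketide and peptide synthases 5 of 42 (11.9%), and the helvolic acid stretch (co-regulated fragment 27) 6 of 9. Among the cellulases, also a list of the study, 6 of 50 (12%) were in the 256. In the 18 others that were higher than on sucrose the rice straw RPM was within 4-fold of cellulose or above it. The 256 included the endo-1,3(4)-β-glucanase entries Y699_04817, Y699_06770 and Y699_07776, at 17.1, 18.4 and 23.8 RPM on cellulose. Enzymes of that kind are part of the cellulase list. In the word groups, 8 of 76 ribosome biogenesis genes (10.5%) were among the 256, and 0 of 9 gluconeogenesis and glyoxylate genes. Inositol oxygenase (Y699_02811), which opens the inositol ring, had 5.71 RPM on sucrose and 26.1 on xylan, and 2057 on cellulose and 370.2 on rice straw (360.3-fold against sucrose), and phenylalanine ammonia-lyase (Y699_02906) had 449 RPM on cellulose, with 8.56, 22.4 and 22.8 RPM on sucrose, xylan and rice straw (52.4-fold). Both were chosen after their values were seen.

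Of the 154 lower genes, the cell wall and surface group held 5 of its 33, nitrogen use 4 of 30, and ergosterol synthesis 2 of 10. Glutamate decarboxylase (Y699_04469), which makes γ-aminobutyrate, had 59.4 RPM on cellulose against 5272 on sucrose, 2084 on xylan and 250.5 on rice straw (88.7-fold lower than sucrose). The peptide transporter Ptr2 (Y699_08850) had 904 RPM on sucrose and 318 on xylan, and 20.4 on cellulose and 757 on rice straw (44.4-fold). The branched-chain amino acid enzyme ketol-acid reductoisomerase (Y699_09416) had 312 RPM on cellulose, with 3706, 2962 and 2639.7 RPM on sucrose, xylan and rice straw (11.9-fold). These 3 were chosen after their values were seen. Proteins described only as hypothetical were among the most extreme. Y699_05963, with 70880 reads on sucrose, had 21.2 RPM on cellulose against 10117 on sucrose, 3349 on xylan and 573 on rice straw (476-fold). Y699_05528 had 2337 RPM on sucrose and 2402 on xylan, and 4.42 on cellulose and 125 on rice straw (529-fold).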

How the data were processed

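Poly(A) mRNA of 4 cultures of A. fumigatus Z5 was converted by the authors to cap-selected full-length cDNA, sonicated and sequenced. The authors mapped reads to the Z5 genes (Bowtie 0.12.2 in the submitters' notes) and deposited a table with raw read counts, RPM, coding length and comparisons of each polysaccharide with sucrose. Neither strand nor the handling of reads with several matches is given in the sources used here, so reads of near-identical genes may be split. The deposited RPM equals reads scaled by the library total. The deposited log2 ratios and the deposited p-values and q-values hold the authors' own comparisons and were not used.

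Deposited counts were scaled by library totals of 6820702 to 7553138 reads. The reads of each gene were set against the library totals in an exact binomial test (two-sided), with Benjamini-Hochberg adjustment over genes with a read in either library, at a q of 0.0001, 4-fold and 10 RPM. Ratios carry exact Clopper-Pearson 95% intervals, which cover counting error only. log2 ratios add 0.5 reads, and a library at 0 is set to 3 reads for a lower bound. Lists were described by counts and medians, with no test.

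The lists are the study's enzyme, secretory, metabolite cluster and co-regulated fragment lists and word groups in the function texts. A group based on those texts covers only genes the study found to vary. Named genes are those with the most reads in each library, those called in either direction whose ratio interval lies farthest from 1, the members with most RPM among those called in each list, and genes the study names. Members, lists and rules were chosen with earlier results of these data known. The comparisons with xylan and rice straw and these genes were chosen after their values were seen: Y699_00380, Y699_00602, Y699_00663, Y699_00734, Y699_01075, Y699_01108, Y699_01589, Y699_01905, Y699_02418, Y699_02811, Y699_02906, Y699_03003, Y699_03361, Y699_03549, Y699_04417, Y699_04469, Y699_04830, Y699_04977, Y699_05015, Y699_05110, Y699_05499, Y699_05951, Y699_06158, Y699_06473, Y699_07009, Y699_07011, Y699_07348, Y699_08850 and Y699_09416. Symbols of strain Af293 were taken through the locus tags in the function texts from RefSeq (326 genes).

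Alternatives changed the scaling (edgeR 4.0.16 TMM, DESeq2 1.42.0 size factors, library totals that leave out the top 1% of genes by reads), the RPM floor, the fold, the test (the exact test of edgeR at a coefficient of variation set to 0.2 or 0.4), the added reads and the 20 genes left out. Python 3.11.15, scipy 1.17.1, pandas 2.3.3 and R 4.3.3 were used. The study's qPCR and enzyme assays were not analysed here. The result for 1 gene is not reported here.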

Additional observations from a re-analysis of the deposited data

Results flagged for a closer look

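The 20 genes at the start of the locus order, which were left out, had 583 reads in the sucrose library, 433 in the xylan library and 856 in the rice straw library, but 0 reads in the cellulose library. Of the 20 genes 17 had reads on sucrose. They were looked at again because a signal stood in genes outside the comparison, and why the cellulose column is at 0 was not tested.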

How the results depend on the processing

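No paired analysis was possible because there was 1 library a side, and for the same reason no library could be left out. The other scalings moved every log2 ratio by between -0.08 (edgeR TMM) and -0.05 (totals without the most abundant 1% of genes), and the median of all genes became -0.0050 under TMM. Of the 1025 higher genes 972 stayed called under TMM and 983 under DESeq2 size factors, and all 683 lower genes did. At 2-fold 1974 genes were higher and 1564 lower, and at 8-fold 529 and 358. The exact test of edgeR, with the variation between cultures set to a coefficient of 0.2, called 996 and 656, and with 0.4 it called 209 and 135, so the counts depend on a spread that these data cannot give. At 2-fold 6 cellulases and not 1 were lower, and 5 respiration genes were higher. At 8-fold 30 ribosome biogenesis genes and 1 respiration gene were higher and 6 respiration genes were lower, and of the ergosterol genes 0 were higher and 5 lower. The cellulase median was 3.41 over genes with reads in both libraries and 1.77 with 10 reads added, and with 10 reads added the ergosterol and conidial medians were -2.85 and 4.75. Of the genes that the naming rule gives, 7 lost their call under TMM and 4 under DESeq2 scaling.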

Other observations

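Of 25 protease genes 9 (36%) were called higher and 7 (28%) lower, near the 40.8% and 26.1% of all genes with function texts. Higher genes included secreted exopeptidases. The aminopeptidase lap2 (Y699_08023) had 266 RPM on cellulose, with 4.42, 19.5 and 176 RPM on sucrose, xylan and rice straw (60.2-fold). The dipeptidyl peptidase dppIV (Y699_06318) had 109 RPM on cellulose against 3.85 on sucrose, 80.2 on xylan and 455 on rice straw (28.2-fold). Among the lower genes, the tripeptidyl peptidase sedD (Y699_09209) had 190.0 RPM on sucrose and 3.52 on xylan, and 3.28 on cellulose and 28.2 on rice straw (58-fold). The alkaline protease pr1 (Y699_08513) had 1.57 RPM on cellulose, with 41.3, 5.57 and 0.794 RPM on sucrose, xylan and rice straw (26.3-fold). Of 13 cytochrome P450 genes 10 were higher and none was lower, beside the same 40.8% and 26.1%. Y699_03972 had 188 RPM on cellulose against 2.57 on sucrose, 2.2 on xylan and 57.7 on rice straw (73.2-fold). Of 12 genes for fatty acid oxidation and peroxisomes 5 (41.7%) were higher and 3 (25%) lower, again near those shares. An enoyl-CoA hydratase entry (Y699_09419) had 5.57 RPM on sucrose and 5.28 on xylan, and 138 on cellulose and 34.6 on rice straw (24.9-fold). An acyl-CoA dehydrogenase (Y699_00837) had 15.4 RPM on cellulose, with 164, 83.3 and 38.8 RPM on sucrose, xylan and rice straw (10.6-fold lower).

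Several genes with many reads on cellulose alone have no function text. Y699_01075 had 1708 RPM on cellulose against 45.4 on sucrose, 111 on xylan and 40.2 on rice straw (37.6-fold against sucrose), Y699_00663 had 3.57 RPM on sucrose and 18.5 on xylan, and 906 on cellulose and 6.75 on rice straw (254-fold) and Y699_05499 had 479.9 RPM on cellulose, with 6.57, 2.05 and 0.53 RPM on sucrose, xylan and rice straw (73.1-fold). They were chosen after their values were seen. Of 13 heat shock and chaperone genes 6 (46.2%) were higher and 3 (23.1%) lower, near the 40.8% and 26.1% of all genes with function texts. The secretory pathway genes come from a list of the study and not from those texts. Of these 227 genes 5 (2.20%) were higher and 13 (5.73%) lower, against 10.9% and 7.26% of all genes.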
